A study of Rattus norvegicus with 8 samples.

Results

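The B cell receptor and B lineage genes examined here were the 7 genes Cd79a, Cd79b, Fcer2, Tnfrsf13c, Fcmr, Pou2af1 and Igh-6, chosen by symbol from the 32754 genes of the count tables. They were followed in immune cells prepared from whole livers of 4 male Han Wistar rats. NC1 and NC2 were fed a choline-sufficient, amino acid-defined diet (CSAA), whereas PC1 and PC2 were fed its choline-deficient counterpart (CDAA), which is used to induce fatty liver disease. Cells of each animal were sequenced fresh, without preservation, and again after DMSO cryopreservation and storage for 3 weeks, which gave 4 fresh and 4 preserved libraries. The cells came from the interphase of a density gradient after lysis of erythrocytes and were not sorted, so a library could hold any immune cell of the liver. Each combination of diet and preservation consisted of 2 animals. Preservation and the later date of library preparation cannot be told apart, because the preserved cells were processed after storage.

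Mature B cells recognise antigen through a membrane-bound immunoglobulin that cannot signal on its own. Its signal passes through a heterodimer of Cd79a and Cd79b, whose cytoplasmic tails are phosphorylated after antigen binding and recruit the kinase Syk. Mature B cells also need the BAFF receptor for survival, and they sense antibody classes through separate Fc receptors, among them those for IgM and IgE. Plasmacytoid dendritic cells, which are marked by the lectin Siglech in rodents, share transcription factors and some signalling molecules with B cells but secrete type I interferon instead of antibody.

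Barcodes with at least 500 unique molecular identifiers (UMIs, each counting 1 captured transcript) were taken as cells. There were 4771, 4434, 4327 and 4597 cells in the fresh libraries of NC1, NC2, PC1 and PC2, and 3673, 3676, 4094 and 4481 in the preserved libraries. Total counts were 18338700 to 26471843 UMIs per library. Any pair of libraries shared 13 to 36 cell barcodes, where independent draws from the barcode list give 18.3 to 29.7. The libraries of PC2 stood apart from the other libraries for 6 of the 7 genes in both preservation states, so the diet differences of these 6 genes over all cells are given with and without this animal. Levels are given as CPM, that is UMIs of a gene per 1000000 UMIs of the same cells. Intervals and limits of shares cover counting error only.

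The signalling chains of the receptor were detected in all 8 libraries. The level of Cd79a (ENSRNOG00000020125) over all cells was 81.6, 93.7, 79.8 and 41.6 CPM in the fresh libraries of NC1, NC2, PC1 and PC2, and 76.5, 86.3, 74.9 and 35.6 CPM in the preserved libraries in the same order. The level of Cd79b (ENSRNOG00000011917) was 146, 165, 139 and 36.2 CPM in fresh and 131, 168, 151 and 51.0 CPM in preserved cells. For both chains PC2 was the lowest library in either state, whereas PC1, the other animal on the CDAA diet, lay among or close to the CSAA animals.

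Among the receptors on the B cell surface, the IgE and BAFF receptors showed the same gap between PC2 and the remaining animals. Fcer2 (ENSRNOG00000001005), the low-affinity IgE receptor CD23 of mature B cells, was at 16.5, 15.0, 18.1 and 3.46 CPM in fresh and 13.6, 14.9, 15.99 and 3.73 CPM in preserved cells. Tnfrsf13c (ENSRNOG00000007664), the receptor for the survival factor BAFF, was at 18.7, 24.5, 24.5 and 5.34 CPM in fresh and 15.9, 26.7, 23.4 and 5.19 CPM in preserved cells. Fcmr (ENSRNOG00000004441), the Fc receptor for IgM, was at 96.0, 75.4, 77.8 and 37.2 CPM in fresh and 118, 93.1, 99.5 and 51.4 CPM in preserved cells. The level of Fcmr was higher in the preserved than in the fresh library of every animal, which was not the case for Fcer2 or Tnfrsf13c.

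Pou2af1 (ENSRNOG00000011500), the coactivator of octamer-binding transcription factors in B cells, was at 12.2, 13.1, 13.7 and 3.25 CPM in fresh and 10.5, 14.2, 13.8 and 4.00 CPM in preserved cells, again with PC2 lowest. Igh-6 (ENSRNOG00000048402), an immunoglobulin heavy chain gene, departed from the other 6 genes. It was counted with 128, 3, 5 and 134 UMIs in fresh and 243, 24, 1 and 2 UMIs in preserved cells, so NC1 and PC2 held most in the fresh and NC1 in the preserved state. UMI counts depend on the capture of each transcript, so values of different genes are not measures of their relative expression.

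**Figure D1:**
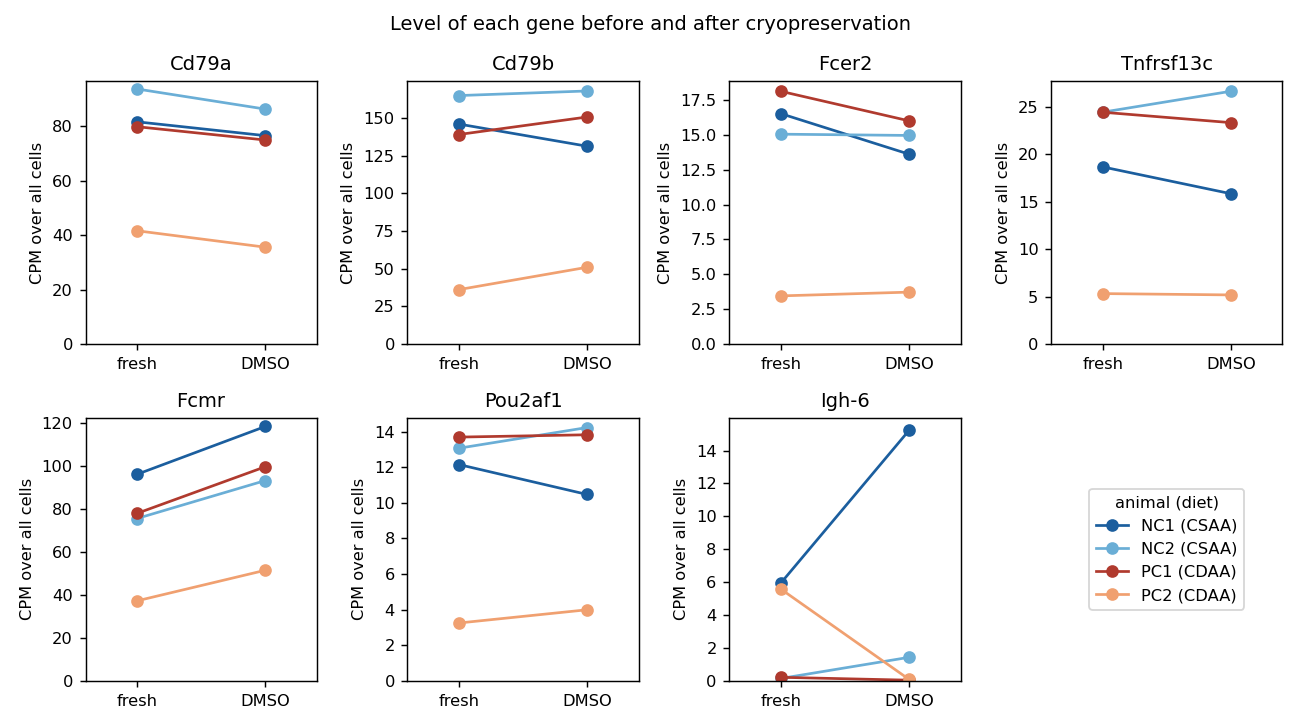
Level of each of the 7 genes in CPM over all cells (vertical axes, linear from 0) in the fresh and the DMSO cryopreserved library of each animal, with a line joining the libraries of 1 animal. PC2 lies lowest for the 6 genes other than Igh-6 in both states, Fcmr is higher after preservation along all 4 lines, and Igh-6 reaches 15.2 CPM in the preserved library of NC1.

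RNA outside cells also held transcripts of the members, and its part in the levels of cells was not tested. In barcodes with 1 to 100 UMIs, taken as free RNA, the level of Cd79a ranged from 20.0 to 55.4 CPM before and from 13.1 to 37.4 CPM after preservation, and that of Cd79b from 47.2 to 176 and from 53.6 to 166 CPM. Among the 5460 cells with Cd79a, 3257 or 59.7% held only 1 UMI of it. A cell was called Cd79a positive or Siglech positive from 1 UMI, and the genes were therefore also measured in cells with at least 3 Cd79a or at least 5 Siglech UMIs. The 2262 cells positive for both Cd79a and Siglech had median depths of 7176.5 to 8580 UMIs per library, compared with 2615 to 3661 UMIs in Cd79a positive Siglech negative cells, and were left out of the comparisons between cell classes.

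The 5 members that could be tested were at higher levels in Cd79a positive cells. In the fresh libraries, Cd79a positive Siglech negative cells were compared with cells that held no UMI of either gene (double negative cells), after summing the UMIs of each class per library. All 5 were called higher, where a call required an adjusted p under 0.05 and at least a 2-fold difference, whereas 2.07% of the 10394 genes tested were called and 1.23% were called higher. Cd79b was 8.93-fold higher (log2 3.16, SE 0.073, adjusted p = 1.61e-16, edgeR). Of the surface receptors, Fcmr was 8.87-fold, Tnfrsf13c 10.4-fold and Fcer2 10.9-fold higher, and Pou2af1 was 11.2-fold higher (log2 3.15 to 3.48, SE 0.096 to 0.14, adjusted p at most 1.07e-12, edgeR). These 5 genes were called in all 16 settings of the fit, which include leaving out each animal, with log2 differences of 3.10 to 4.90. The Cd79a positive Siglech negative cells held 3.99 to 10.7% of all UMIs of the cells and a median of 28.8% of the Fcmr UMIs (14.4 to 38.4% per library), 42.2% of those of Cd79b, 43.4% of those of Tnfrsf13c, 45.2% of those of Fcer2 and 40.7% of those of Pou2af1. By these medians most UMIs of each gene lay outside this class. The cells outside it include those positive for both Cd79a and Siglech, which held 8.58 to 12.7% of all UMIs. These shares are therefore not the shares of all Cd79a positive cells. In the preserved libraries the log2 differences were 3.26 to 3.61, and 1.55% of the genes tested were called higher. Igh-6 did not pass the filter on low counts in this comparison, and Cd79a was not tested because it had selected the cells.

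The differences were larger when B cells were defined by at least 3 Cd79a UMIs, at 22.8-fold for Fcmr, 25.4-fold for Cd79b, 26.0-fold for Fcer2 and 29.9-fold for both Tnfrsf13c and Pou2af1. This class, without Siglech UMIs, held 939 cells. The level of Cd79b in them was 1689, 1862, 1441 and 1433 CPM in fresh and 1880, 2169, 1639 and 1826 CPM in preserved cells, in the order NC1, NC2, PC1 and PC2. The level of Fcmr was 679, 645, 708 and 626 CPM in fresh and 797, 848, 884 and 668 CPM in preserved cells. Both genes of PC2 lay close to or within the range of the other animals here, unlike over all cells. Tnfrsf13c was at 268, 309, 275 and 219 CPM in fresh and 259, 366, 270 and 248 CPM in preserved cells of this class. Fcer2 was at 127 to 193 CPM and Pou2af1 at 121 to 169 CPM over the 8 libraries, so none of the 5 genes showed the several-fold gap of PC2 in this Siglech negative class. With Siglech positive cells included, PC2 stood apart again in fresh cells, with 535 CPM of Cd79b and 275 CPM of Fcmr compared with 1161.5 to 1536 and 507 to 591 CPM in the other fresh libraries. The number of Siglech negative cells with at least 3 Cd79a UMIs was lowest in PC2. It was 43 in its fresh and 50 in its preserved library, compared with 94 to 166 in the others. In these unsorted samples, fewer B cells and less RNA per B cell cannot be told apart from the level over all cells. Levels in cells with at least 3 Cd79a UMIs do not separate them either, because cells with fewer Cd79a UMIs are left out of the class.

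Cells selected by T cell or myeloid markers held far lower levels of the 5 genes. Cd79b was at 13.8 to 78.5 CPM in Cd3 positive cells (at least 2 UMIs over Cd3d, Cd3e and Cd3g, none of Cd79a or Siglech) and at 22.6 to 95.2 CPM in myeloid cells (at least 3 UMIs over Lyz2, Csf1r and Cd68). A Cd79b UMI was found in 88.4 to 98.0% of the Siglech negative cells with at least 3 Cd79a UMIs, with a median depth of 2544.5 to 3399 UMIs per library. It was found in 9.27 to 33.0% of Cd3 positive cells, with a median depth of 3391 to 5802 UMIs. With each cell thinned to 500 UMIs the shares were 47.2 to 63.8% and 0.617 to 3.96%. Fcer2, Tnfrsf13c and Pou2af1 did not exceed 16.8 CPM in any library of Cd3 positive or myeloid cells. They were at 121 CPM or more in every library of the Siglech negative cells with at least 3 Cd79a UMIs. These classes do not overlap in any of the 8 libraries for the 5 genes. The Cd3 positive and myeloid cells were selected to hold no Cd79a UMI, and such gaps were not counted over all genes. In the fit of fresh cells with at least 3 Cd79a UMIs, 281 of 7683 genes were called higher than in double negative cells.

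**Figure D2:**
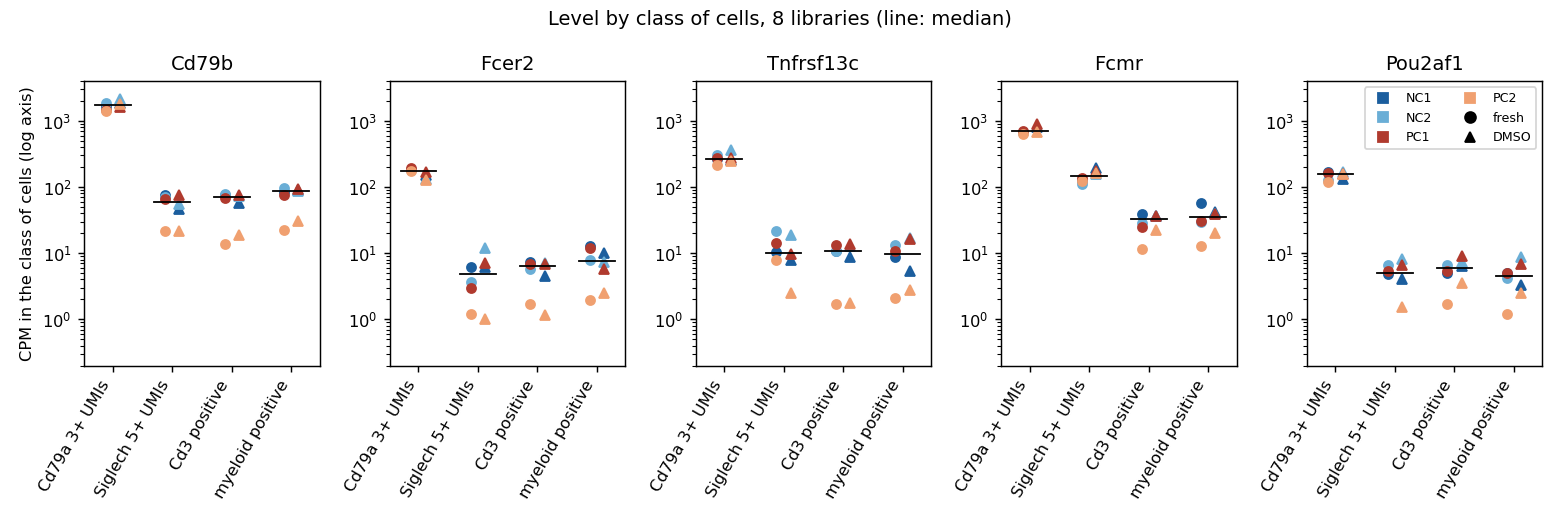
Level of 5 genes in CPM (log axis) in 4 classes of cells, with 1 point per library, colours for animals, circles for fresh and triangles for DMSO cryopreserved libraries, and a line at the median. All points of the Siglech negative cells with at least 3 Cd79a UMIs lie above those of the other classes. Of the 5 genes, Fcmr is the 1 whose points for cells with at least 5 Siglech UMIs (111.8 to 197 CPM) all lie above those for Cd3 positive and myeloid cells (11.5 to 56.8 CPM).

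The median level over the 8 libraries of each of the 5 genes was higher in cells with more Cd79a UMIs, up to 3 to 4 of them. The lowest library did not follow for 2 genes, going from 205 CPM at 2 UMIs to 182 CPM at 3 to 4 for Fcmr and from 18.9 to 14.9 CPM for Pou2af1. The median level of Cd79b over the 8 libraries was 74.7 CPM in cells without Cd79a, 130 CPM with 1 UMI, 434 CPM with 2, 1004 CPM with 3 to 4 and 1600 CPM with 5 or more. Fcmr went from 49.0 CPM through 94.9, 271 and 480 to 619 CPM over the same steps. Cells with 1 Cd79a UMI were therefore closer to cells without Cd79a than to those with at least 3 UMIs for both genes. Tnfrsf13c and Pou2af1 were highest in the cells with most Cd79a, whereas the median of Fcer2 was 131 CPM at 3 to 4 UMIs and 105 CPM at 5 or more. Among cells with at least 3 Cd79a UMIs, Siglech positive ones included, a median of 63.5% held at least 3 of the other 6 genes and 2.71% held none. In cells without Cd79a these medians were 1.56% and 57.7%. PC2 was the lowest animal among the cells with at least 3 Cd79a UMIs. Of them, 42.9% in its fresh and 50% in its preserved library held at least 3 other genes.

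**Figure D3:**
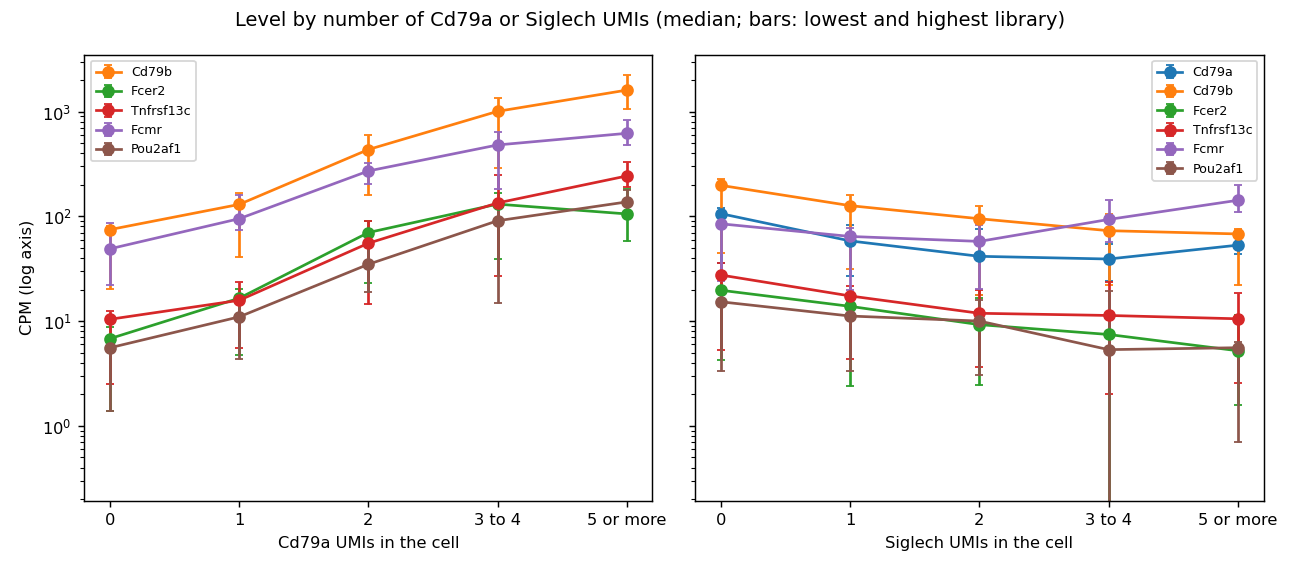
Median level over the 8 libraries in CPM (log axis) by the number of Cd79a UMIs (left) or Siglech UMIs (right) in a cell, with bars from the lowest to the highest library. Bars that leave the panel at the bottom end at 0 CPM (Fcer2 and Pou2af1 at 3 to 4 Siglech UMIs), and the median of Fcmr goes from 57.6 CPM at 2 Siglech UMIs to 142 CPM at 5 or more while that of Cd79b goes from 94.8 to 67.9 CPM.

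The genes whose pattern was most like that of the members were ranked by the lowest log2 ratio over the 8 libraries between Cd79a positive Siglech negative and double negative cells, after adding 10 CPM. Among the 8068 genes with at least 50 UMIs in the positive cells, Cd79a held rank 1 by construction, Cd79b rank 2 and Fcmr rank 3, with lowest ratios of 2.72 for Cd79b and 2.51 for Fcmr. Tnfrsf13c held rank 5, Fcer2 rank 8 and Pou2af1 rank 9, so that 5 of the 6 remaining members were among the 10 highest genes. LOC501110, Pxdc1 and Adgrv1, which are not members, were also among these 10 genes. Igh-6 had 12 UMIs in the Cd79a positive Siglech negative cells and was not ranked.

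Other genes of the B cell programme were measured from 4 lists. Of the receptor signalling genes, 5 of 19 tested were called higher in Cd79a positive cells and none lower, among them Cr2, the complement receptor CD21 (log2 3.60, SE 0.20), and the Src family kinase Blk (log2 2.57, SE 0.26). The median log2 difference of this list was 0.48, and that of all genes tested was -0.02. Of the B lineage transcription factors, 5 of 11 were called higher, led by the early B cell factor Ebf1 (log2 4.37, SE 0.24), and of the surface genes, 5 of 10, led by Ms4a1, which encodes CD20 (log2 3.61, SE 0.22), and Tnfrsf13b, the receptor TACI for BAFF and APRIL (log2 3.51, SE 0.31). Of the genes of antibody secreting cells, Mzb1, a chaperone of immunoglobulin assembly, was the only one called of 6 tested (log2 2.08, SE 0.23). The label of the class was checked on B cell markers other than the selecting gene Cd79a. In the Siglech negative cells with at least 3 Cd79a UMIs, Ms4a1 was at 25.5 to 103 CPM and Ebf1 at 63.6 to 108 CPM, compared with at most 3.45 and 1.66 CPM in double negative cells. Pax5 and Cd22, at 0 to 25.5 CPM and 0 to 29.98 CPM in the Siglech negative cells with at least 3 Cd79a UMIs, were barely detected. Markers of other cells were also present in the cells with at least 3 Cd79a UMIs, Siglech positive ones included, with sums of 158 to 501 CPM for 4 of 5 T cell markers, 636 to 2157 CPM for 5 NK cell markers, 2324 to 5703 CPM for 6 myeloid markers and 968 to 2378 CPM for 8 plasmacytoid dendritic cell markers. In double negative cells these sums were 192 to 944, 2319 to 5210, 6475 to 12301 and 853 to 1328 CPM, the last with Siglech at 0 by selection, and the part of these transcripts in the results was not tested.

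Promoter sequences from RefSeq (GRCr8 assembly, from 250 bases before to 50 bases after the start) were available for 3 of the 7 members and are shown because Tnfrsf13c and Fcmr were both higher in cells selected by Cd79a. Capitals mark the E-box CAGGTG, a motif bound by E proteins such as the B lineage factor Tcf3, and all sequences run 5′ to 3′ on the strand of the gene.
Cd79a, chr1:89621210-89621509, plus strand: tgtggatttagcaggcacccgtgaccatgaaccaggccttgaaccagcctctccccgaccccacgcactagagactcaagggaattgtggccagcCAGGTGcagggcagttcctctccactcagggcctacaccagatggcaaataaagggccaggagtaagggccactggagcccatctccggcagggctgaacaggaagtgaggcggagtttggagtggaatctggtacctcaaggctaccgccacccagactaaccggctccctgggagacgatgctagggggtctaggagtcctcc
Tnfrsf13c, chr7:115618598-115618897, minus strand: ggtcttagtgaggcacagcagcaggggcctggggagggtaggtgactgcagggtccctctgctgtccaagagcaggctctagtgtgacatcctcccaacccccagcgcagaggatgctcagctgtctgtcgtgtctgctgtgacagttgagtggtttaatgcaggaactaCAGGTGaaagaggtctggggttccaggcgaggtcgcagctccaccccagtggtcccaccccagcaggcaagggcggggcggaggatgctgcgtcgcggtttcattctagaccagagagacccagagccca
Fcmr, chr13:44889430-44889729, plus strand: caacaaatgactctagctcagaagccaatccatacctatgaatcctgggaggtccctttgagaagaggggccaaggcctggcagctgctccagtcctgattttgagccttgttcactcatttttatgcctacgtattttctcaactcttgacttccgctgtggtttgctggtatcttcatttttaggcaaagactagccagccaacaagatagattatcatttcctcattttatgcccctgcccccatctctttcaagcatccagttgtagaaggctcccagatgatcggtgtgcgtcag
The E-box was found 155 bases before the start of Cd79a and 80 bases before that of Tnfrsf13c, was not in the window of Fcmr, and occurred on either strand in 18.8% of 33469 promoters of this length. The octamer ATGCAAAT, at which Pou2af1 acts, was in none of the 3 windows and in 1.78% of all promoters. The EBF1 motif was searched in its strict palindromic form only, which was likewise in none of the 3 windows and in 0.834% of all promoters. Variants of the motifs were not searched, so a missing match does not show that a promoter lacks a binding site. A match is a description of the letters and not a binding site.

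In Siglech positive cells, the members separated into Fcmr and the rest. Siglech positive Cd79a negative cells of the fresh libraries were compared with double negative cells in the same fit. None of the 5 tested members was called, where 2.55% of the 10394 genes were called in either direction, 2.04% were called higher and 3822 had an unadjusted p under 0.05 by edgeR. Fcmr was 1.89-fold higher (log2 0.92, SE 0.096, adjusted p = 4.44e-07, edgeR), just under the 2-fold minimum, and without that minimum 12.3% of the genes were higher. Cd79b (log2 -0.18, SE 0.075, adjusted p = 0.085) and Fcer2 (log2 -0.42, SE 0.18, adjusted p = 0.097) did not pass the edgeR test. Tnfrsf13c had a log2 difference of 0.03 (SE 0.15) and Pou2af1 of 0.00073 (SE 0.15), and both changed sign in the preserved libraries.

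Fcmr passed both criteria once cells with few Siglech UMIs were set aside. Its log2 difference was 1.52 with at least 2 and 2.03 with at least 5 Siglech UMIs. In these fits 389 of 9208 and 521 of 7683 genes tested were called higher, compared with 212 of 10394 in the main fit. In the preserved libraries the log2 difference of Fcmr was 1.21, and 2.92% of the genes were called higher. The 2610 cells with at least 5 Siglech UMIs included 1721 without Cd79a, in which Fcmr was at 125, 111.8, 136 and 124 CPM in fresh and 197, 155, 172 and 162 CPM in preserved cells. In double negative cells it was at 45.9, 31.3, 31.0 and 12.0 CPM in fresh and 42.0, 36.9, 38.9 and 20.1 CPM in preserved cells. Every Siglech library lay above every double negative library. A Fcmr UMI was found in 59.0 to 76.2% of these cells with a median depth of 8189 to 9631 UMIs per library, and in 7.26 to 15.3% of Cd3 positive cells. With each cell thinned to 500 UMIs these shares were 5.28 to 9.74% and 0.527 to 2.097%. The adjusted p of Fcmr by edgeR was 0.372 when the classes were not paired by animal.

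The low levels of PC2 were also seen for Cd79b in Siglech cells, but not for Fcmr. Cd79b in the cells with at least 5 Siglech UMIs and without Cd79a was at 74.5, 69.4, 65.6 and 21.6 CPM in fresh and 46.4, 54.8, 74.7 and 21.8 CPM in preserved cells, and in double negative cells at 84.2, 83.5, 73.9 and 21.8 CPM and at 71.7, 84.4, 85.6 and 28.9 CPM. PC2 was lowest for Cd79b in both classes and both states. Fcmr of the Siglech cells, in contrast, was not lowest in PC2 in either state. Genes whose pattern was most like Siglech, by the same lowest ratio, were Kmo, LOC100361706, Cyb561a3 and Gapt, and Fcmr held rank 72 of 10746. As a check of the label on markers other than the selecting gene Siglech, Tcf4 was at 218 to 281 CPM and Irf7 at 190 to 336 CPM in these cells, compared with 25.1 to 43.5 and 43.0 to 105 CPM in double negative cells, whereas Cox6a2 and Ptprs were at most at 1.71 CPM in the Siglech cells. The 7 B cell markers, among them Cd79a and Cd79b, summed to 25.8 to 94.9 CPM in the Siglech cells, with Cd79a at 0 by selection.

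Among the cells with at least 5 Siglech UMIs, 889 of 2610 held a Cd79a UMI, or 26.5 to 41.0% per library, and 88 held at least 3. The level of Cd79a in these cells was 47.0, 54.0, 61.8 and 67.8 CPM in fresh and 43.4, 50.1, 59.5 and 52.1 CPM in preserved cells. In Cd3 positive cells selected without regard to Cd79a it was 65.1, 69.8, 53.7 and 20.1 CPM in fresh and 57.4, 53.3, 64.7 and 14.6 CPM in preserved cells. The level in Siglech cells was below that in Cd3 positive cells in both animals on the CSAA diet and in the preserved cells of PC1, and above it in fresh PC1 and in both libraries of PC2. With each cell thinned to 500 UMIs, a Cd79a UMI was found in 2.07 to 3.22% of the Siglech cells and in 1.06 to 3.52% of the Cd3 positive cells. The thinned share of the Siglech cells was the higher of the 2 in PC2 only. Median depths differed between the classes, at 8202 to 9762 UMIs per library in the Siglech cells and 3398 to 5759 in these Cd3 positive cells. Free RNA can make up unlike parts of cells of unlike depth, so the shares do not decide whether Siglech cells express Cd79a, which was not tested.

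Ratios of genes to Cd79b within a library were also compared between classes, with Cd3 positive and myeloid cells selected here without regard to Cd79a. The ratio of Fcmr to Cd79b UMIs in the cells with at least 5 Siglech UMIs was 1.89, 1.44, 1.89 and 6.06 in fresh and 3.49, 2.28, 2.37 and 7.30 in preserved cells. Its median of 2.32 compares with 0.472 in free RNA, 0.496 in Cd3 positive cells and 0.466 in myeloid cells. The median was 0.413 in Siglech negative cells with at least 3 Cd79a UMIs. Each of these 4 ratios was lower than the Siglech ratio in 8 of 8 libraries. The ratio of Cd79a to Cd79b had a median of 0.786 in the Siglech cells, compared with 0.258 in free RNA, 0.454 in Cd3 positive and 0.599 in myeloid cells, all lower in 8 of 8 libraries. Siglech negative cells with at least 3 Cd79a UMIs, selected for Cd79a, had a median of 0.835 and were lower in 4 of 8 libraries. An exact permutation test over the 4 animals gave p = 0.125 for each of the ratios that were lower in 8 of 8 libraries, two-sided and the smallest value that 4 pairs allow, and 8 such comparisons were made.

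**Figure D4:**
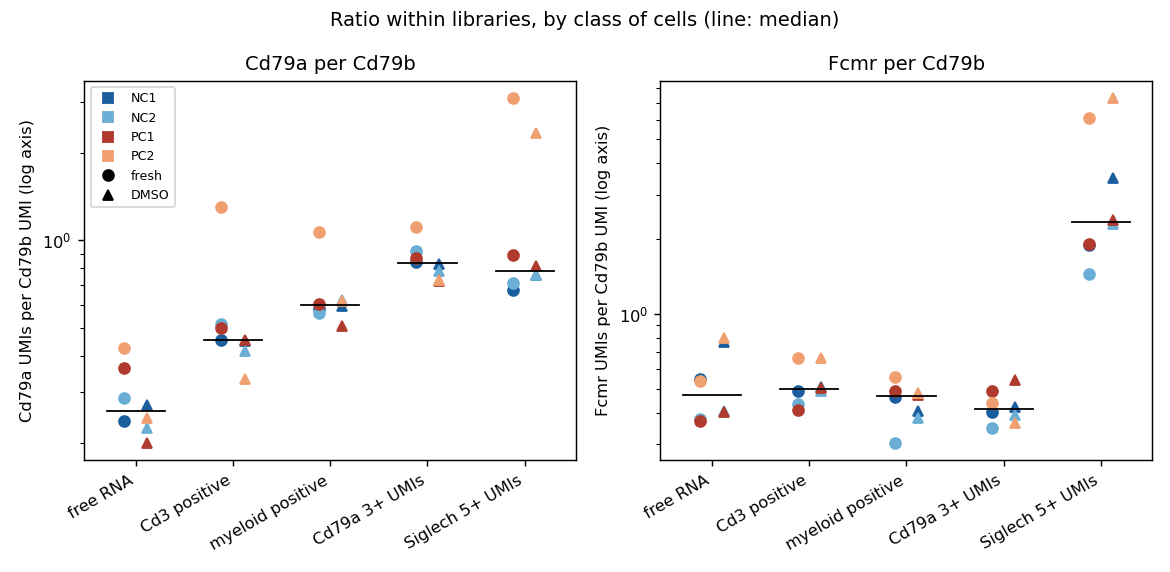
Ratio of Cd79a (left) and Fcmr (right) to Cd79b UMIs within each library (log axes) in free RNA and in 4 classes of cells. Each library is 1 point, a line marks the median, and Cd3 positive and myeloid cells were selected without regard to Cd79a. The Fcmr ratio of cells with at least 5 Siglech UMIs, 1.44 to 7.30, lies above all other classes, whose highest value is 0.796, and both libraries of PC2 have the highest Cd79a ratios of the Siglech cells.

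B cell genes other than the members that were called higher in Siglech positive cells included 1 of 19 receptor signalling genes, 4 of 11 transcription factors, 2 of 10 surface genes and 2 of 6 genes of antibody secreting cells, where 2.04% of all genes tested were called higher. None of the 4 lists held a gene called lower. By the adjusted p alone, the lists held 3, 5, 3 and 2 higher genes and 2, 3, 1 and 1 lower genes in the same order, so their genes went both ways. The genes called higher were led by the transcription factors Bcl11a (log2 1.79, SE 0.096) and Spib (log2 1.64, SE 0.11), the joining chain Jchain (log2 1.75, SE 0.16), the adaptor Blnk (log2 1.505, SE 0.068) and Fcrla (log2 1.33, SE 0.077). Bcl11a and Spib are known regulators of plasmacytoid dendritic cells as well as of B cells.

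The comparison of preserved with fresh cells asked whether cryopreservation changed the genes. None of the 7 members was called over all cells, where 0.8% of the 11505 genes tested were called by edgeR and 3090 had an unadjusted p under 0.05. Fcmr had an adjusted p of 0.0026 (edgeR) and was 1.33-fold higher after preservation (log2 0.41, SE 0.051, higher in 4 of 4 animals), which is below the 2-fold minimum. With the adjusted p alone, 4.75% of the genes were higher. The log2 differences of Fcmr without each animal in turn were 0.39 to 0.42. Cd79b had a log2 difference of 0.17 (SE 0.081, adjusted p = 0.223, edgeR), and the adjusted p of the remaining 5 members was 0.423 or more. Without pairing by animal, the adjusted p of Fcmr was 0.709 by edgeR.

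Siglech moved with Fcmr in this comparison, with a log2 difference of 0.39 (SE 0.055, adjusted p = 0.0041, edgeR), and the share of cells with at least 5 Siglech UMIs was 9.43, 5.53, 5.52 and 6.18% in fresh and 12.9, 6.69, 8.21 and 7.48% in preserved cells. Within these cells, the log2 ratio of preserved to fresh Fcmr levels was 0.61, 0.47, 0.39 and 0.28 in NC1, NC2, PC1 and PC2, with a mean of 0.44 ± 0.14 (SD, n = 4 animals, two-sided exact permutation test, p = 0.125, the smallest possible). The mean was 0.34 ± 0.39 in cells with at least 3 Cd79a UMIs, Siglech positive ones included. It was 0.30 ± 0.36 in double negative cells and 0.45 ± 0.43 in Cd3 positive cells. In each of these 3 classes Fcmr was higher in 3 of 4 animals. The ratio of NC1 was below 0 in these 3 classes and above 0 in the Siglech cells. In the Siglech negative cells with at least 3 Cd79a UMIs, however, Fcmr was higher in the preserved library of every animal.

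Within Cd79a positive cells, here including the 2262 of 5460 that also held Siglech, none of the 5 tested members was called after preservation, where 0.587% of 8866 genes were called by edgeR and 2011 had an unadjusted p under 0.05. Fcmr had a log2 difference of 0.26 (SE 0.061, adjusted p = 0.024, edgeR), where 3% of the genes were higher by the adjusted p alone, and Cd79b of 0.26 (SE 0.090, adjusted p = 0.100, edgeR). Siglech moved with Fcmr in these cells too (log2 0.35, SE 0.059, adjusted p = 0.0041, edgeR), and its part in the result was not tested. The adjusted p of Fcmr by edgeR was 0.103 without NC2, 0.143 without PC1, 0.108 without PC2 and 0.304 with at least 3 Cd79a UMIs, and it was 0.089 with the DESeq2 test. Over all settings of the fit in these cells, by edgeR or DESeq2, it ranged from 0.011 to 0.767. The 4 lists held 1 called gene over all cells, Cd24, a surface glycoprotein of immature B cells and other cell types (log2 1.20, SE 0.13, adjusted p = 0.0012, edgeR).

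The comparison of diets asked whether the CDAA diet changed the genes. None of the 7 members was called in fresh cells, where 0.994% of 11772 genes were called by edgeR and 2312 had an unadjusted p under 0.05, and none in preserved cells, where 0.625% of 11364 genes were called and 1661 had such a p. The log2 differences of CDAA against CSAA in fresh cells were -0.51 (SE 0.29) for Cd79a, -0.81 (SE 0.56) for Cd79b, -0.53 (SE 0.66) for Fcer2, -0.52 (SE 0.62) for Tnfrsf13c, -0.56 (SE 0.33) for Fcmr and -0.56 (SE 0.59) for Pou2af1, with adjusted p of 0.390 to 0.698. In preserved cells the same 6 genes had differences of -0.50 to -0.60 and adjusted p of 0.498 to 0.729. These differences rested on PC2. Without it, Cd79a and Fcmr differed by -0.12 each and Cd79b by -0.14 in fresh cells on the log2 scale. In preserved cells Cd79a and Fcmr then differed by -0.11 and -0.07. Tnfrsf13c, Pou2af1 and Fcer2 were then 0.20, 0.14 and 0.22 higher in fresh cells, and Tnfrsf13c, Pou2af1, Fcer2 and Cd79b were 0.14, 0.17, 0.18 and 0.02 higher in preserved cells. Without PC1, which left PC2 as the only CDAA animal, the log2 differences in fresh cells were -2.08 for Cd79b and -2.16 for Fcer2.

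In Cd79a positive cells none of the 5 tested members was called between diets, either in fresh cells, where 1.12% of 9186 genes were called and 1409 had an unadjusted p under 0.05 by edgeR, or in preserved cells, where 0.396% of 8585 genes were called and 942 had such a p. Cd79b had a log2 difference of -0.87 (SE 0.43, adjusted p = 0.392, edgeR) in fresh and of -0.69 (SE 0.32, adjusted p = 0.496, edgeR) in preserved cells. The fresh difference was -1.92 without PC1 and -0.28 without PC2, each with only the other CDAA animal left. Other cell classes moved with PC2 as well. Cd3 positive cells made up 5.39 and 5.91% of the fresh and preserved cells of PC2 and 8.28 to 25.0% of those of the other animals, whereas myeloid cells made up 41.4 and 41.5% and 13.8 to 29.9%, and their part in the low B cell levels of PC2 was not tested. None of the genes in the 4 lists was called between diets in any of these fits.

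Cd79a was found in 16.3, 16.4, 19.8 and 13.5% of the fresh and 16.5, 16.5, 18.9 and 11.1% of the preserved cells, and Cd79b in 31.9, 34.1, 33.8 and 10.9% and 25.5, 32.9, 36.3 and 13.5%. The binomial 95% interval of the lowest Cd79b share was 10.1 to 11.9%, and that of the same library's Cd79a share was 12.5 to 14.5%. Fcmr was found in 25.7, 20.5, 22.1 and 11.4% of the fresh and 27.7, 24.3, 27.0 and 14.8% of the preserved cells, a difference of 3.54 ± 1.20 percentage points (SD, n = 4 animals, higher in 4 of 4, two-sided exact permutation test, p = 0.125, adjusted p = 0.875). Cd79a differed by -0.77 ± 1.18 and Cd79b by -0.63 ± 4.26 points after preservation (exact permutation p = 0.500 and 0.875). Between diets, Cd79a differed by 0.28 points in fresh and -1.49 points in preserved cells and Cd79b by -10.6 and -4.30 points, and with 2 animals per diet the smallest exact p is 0.333. Without PC2 these differences were 3.46 and 2.39 points for Cd79a and 0.79 and 7.10 points for Cd79b. The shares of Fcer2, Tnfrsf13c and Pou2af1 were 1.48 to 9.17% over the 8 libraries and lowest in PC2 in both states. These designs cannot reach the threshold, and none of the 21 tests passed it.

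Igh-6 was the 1 member whose preservation difference was called to depend on diet. The interaction of diet and preservation was called for 4 of 12163 genes (0.0329%), namely Igh-6, Cd93, Prss29 and Mcpt1, the other three being no members. Igh-6 had an interaction of -6.98 on the log2 scale (SE 0.81, adjusted p = 0.046, edgeR), that is a lower preserved-to-fresh ratio on the CDAA diet, and Cd79b of 0.33 (SE 0.13, adjusted p = 0.752, edgeR). In fresh cells the CDAA animals held 139 and the CSAA animals 131 Igh-6 UMIs, a ratio per UMI sequenced of 0.948 (95% counting interval 0.741 to 1.21), which was 0.446 (0.276 to 0.709) without the 5 barcodes richest in Igh-6. In preserved cells they held 3 and 267 UMIs, a ratio of 0.0082 (counting interval 0.0017 to 0.024). This ratio was 0.035 (0.0070 to 0.106) without those barcodes. The intervals pool the UMIs of the animals of a diet and do not cover differences between animals. They also treat each UMI as independent, although 1 barcode held 110 of the 139 fresh CDAA UMIs and another held 73 of the 131 fresh CSAA UMIs. Outside those barcodes the fresh libraries of NC1, NC2, PC1 and PC2 held 55, 3, 5 and 24 Igh-6 UMIs, so the diets overlapped. The diet difference of preserved cells was not called (log2 -6.83, SE 1.43, adjusted p = 0.107, edgeR), and the 2 CSAA animals differed from each other, with 243 and 24 UMIs. In free RNA, Igh-6 was at 9.62, 5.42, 9.39 and 6.68 CPM in the fresh libraries of NC1, NC2, PC1 and PC2. In the preserved libraries it was at 10.6, 13.6, 2.65 and 2.55 CPM, from 23, 20, 6 and 7 UMIs. These levels lay above those in cells in every library except preserved NC1.

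The Igh-6 counts rested on few barcodes. Of 540 UMIs in 150 cells, 387 or 71.7% lay in 5 barcodes with at least 10 UMIs each, whereas the 5 cells richest in each other member held 0.604 to 2.501% of its UMIs. A barcode of fresh PC2 held 110 Igh-6 UMIs of 822 in total, and 2 barcodes of preserved NC1 held 99 of 600 and 94 of 837. These 3 shallow barcodes had no UMI of Cd79a or of Ighm, the IgM heavy chain gene listed separately in the files (ENSRNOG00000034190). A barcode of fresh NC1 held 73 Igh-6 UMIs of 17910 with 30 of Jchain, 53 of Mzb1, 6 of Tnfrsf17 and 10 of Cd79a, genes of antibody secreting and B cells. A barcode of preserved NC2 held 11 of 24471, together with 716 UMIs of Ighm and 18 of Cd79a. Without the 5 barcodes the interaction was -3.92 (adjusted p = 0.547, edgeR), and no gene was called, with 765 at an unadjusted p under 0.05. It was -3.81 without PC2 (adjusted p = 0.891, edgeR), -3.31 in cells with at least 1000 UMIs (adjusted p = 0.783, edgeR) and -6.89 with DESeq2 (adjusted p = 0.118). Heavy chain genes resemble each other in sequence, and reads that match several of them could have been counted for another gene or lost, so the assignment to Igh-6 is uncertain.

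**Figure D5:**
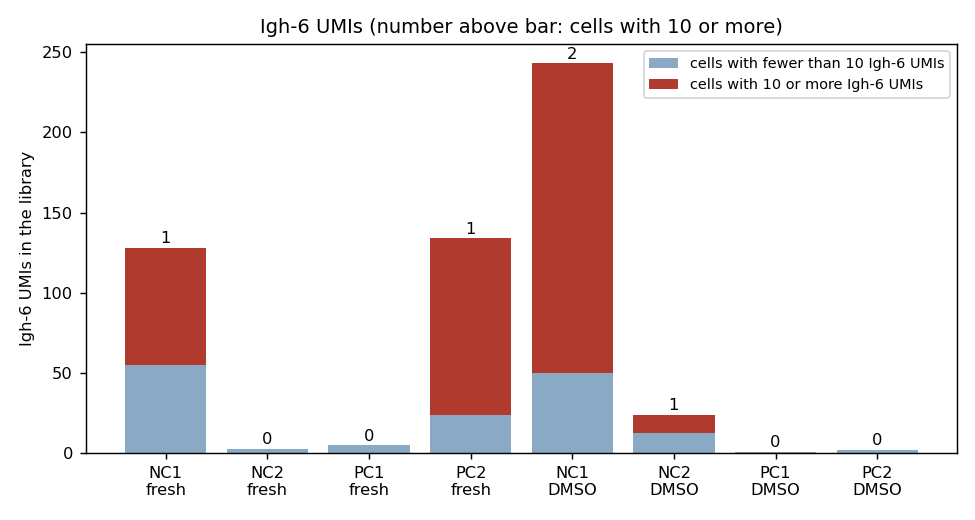
Igh-6 UMIs per library (vertical axis, linear from 0), split into cells with fewer than 10 and with at least 10 Igh-6 UMIs, with the number of the latter cells above each bar. In the 4 libraries with 1 or 2 such cells these cells hold 11 to 193 of the 24 to 243 UMIs, and the remaining 4 libraries hold 1 to 5 UMIs in all.

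Outside these barcodes Igh-6 was found with 153 UMIs in 145 cells, namely 55, 3, 5 and 24 UMIs in fresh and 50, 13, 1 and 2 UMIs in preserved cells. Both libraries of NC1 and the fresh library of PC2, which held the 4 richest barcodes, were also highest here. In the Siglech negative cells with at least 3 Cd79a UMIs, Igh-6 was at 0 to 2.08 CPM. The rich barcodes of fresh NC1 and preserved NC2, with 10 and 18 Cd79a UMIs, were not in this class because they held Siglech. In all cells with 5 or more Cd79a UMIs, Igh-6 had a median of 0 CPM and reached 173 CPM in the highest library.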

How the data were processed

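The deposited values are counts of UMIs that the authors obtained for each gene and barcode of 10x Chromium 3′ v2 libraries, covering all barcodes, neither normalized nor filtered for cells. The submitters' processing notes name Cell Ranger 2.1.1, STAR and bcl2fastq 2.17.1.14, and the reads were assigned to Rnor6.0 with Ensembl 86 annotation. Groups were taken from the sample labels, and the 4 animals were the replicates. The members, marker lists, gene lists and tests were chosen with earlier results of these data known.

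Barcodes with at least 500 UMIs, 34053 in all, were taken as cells. The study states 3542 to 4719 cells per library, and that number of barcodes was an alternative, as were at least 1000 UMIs. Doublets were kept, and the highest Scrublet scores at 0.8% per 1000 cells (108 to 182 cells per library) were left out in an alternative. UMIs were summed per library and cell class and tested in R 4.3.3 by edgeR 4.0.16, using its quasi-likelihood fit (TMM normalization, filter on low counts, Benjamini-Hochberg adjustment over all genes tested), with the animal as a block for preservation and cell classes. A gene was called at an adjusted p under 0.05 and a difference of at least 2-fold. The fit was also run on simulated counts, with the same dispersion for all genes and no differences between animals. That run does not show how the fit performs where animals differ, as they did here. The MAST test over cells was not repeated, since cells are not replicates. Shares were compared by exact permutation, over 16 sign changes for the 4 pairs and over 6 splits for 2 against 2 animals. DESeq2 1.42.0 was an alternative. Python 3.11.15, numpy 2.4.6, pandas 2.3.3, scipy 1.17.1, scanpy 1.11.5 and matplotlib 3.10.9 were used.

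Fresh and preserved libraries were paired because they came from the same animal, and their deviations from the group means correlated with r = 0.513 to 0.663 over 11505 genes. Named genes other than the members were the 10 most like them by the lowest log2 ratio over libraries, the 5 most like Siglech, and in each comparison at most 5 called genes of the 4 lists by size. Blk and Mzb1 in the Cd79a positive cells and the genes called with Igh-6 were named after their values were seen, and 1 gene that the rule names is not reported here.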

Additional observations from a re-analysis of the deposited data

Results flagged for a closer look

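The Cd79b share of the fresh library of PC2 was 10.9%, and its gap to the nearest fresh library was 0.907 of the range of the 4 fresh libraries. The level of Pou2af1 in the same library was 3.25 CPM, with a gap of 0.853 of the range. The level of Igh-6 in the preserved library of NC1 was 15.2 CPM, with a gap of 0.908 of the range, and 2 barcodes held 193 of its 243 UMIs. These 3 values came from 28 groups of 4 libraries, each compared with the 95% critical value of Dixon's test, and chance marks about 1 in 20 such groups. The preservation difference of Igh-6 differed between diets, with an interaction of -6.98 on the log2 scale (adjusted p = 0.046, edgeR), and without the 5 barcodes richest in Igh-6 it was -3.92 (adjusted p = 0.547, edgeR).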

How the results depend on the processing

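Of 133 alternatives for counts of called genes or shares, 75 kept the count within 1.5 times, and of 491 for single genes and shares, 449 kept their direction and their side of the threshold. Both tallies include exact tests of shares, which cannot pass the threshold at these sizes, so their side of it was fixed in advance. The 5 members tested in Cd79a positive cells were called under every alternative. Genes called for preservation over all cells (92) numbered 1044 without the 2-fold minimum, 56 with DESeq2, 153 without the filter, 11 with no replicate block and 30 to 192 without 1 animal. In Cd79a positive cells (52) they numbered 602, 12, 116, 8 and 28 to 103, and 22 or 13 from 2 or 3 Cd79a UMIs. Genes called for diet in fresh cells (117) numbered 363 with DESeq2, 338 without the filter and 23 to 443 without 1 animal, and in preserved cells (71) 251 with DESeq2 and 4 to 306 without 1 animal. In Cd79a positive cells they numbered 162, 396 and 19 to 170 in fresh cells (103), with 53 or 9 from 2 or 3 UMIs, and 82, 85 and 33 to 227 in preserved cells (34), with 18 without doublets and 20 from 2 UMIs. The interaction (4 genes) gave 30 without the filter, 7 without doublets, 8 to 136 without 1 animal and 0 without the Igh-6 barcodes. Cd79a positive cells (215) gave 894 without the 2-fold minimum, 599 from 2 UMIs, 769 from 3 UMIs and 66 with no replicate block, and Siglech positive cells (265) gave 2738, 760, 1294 from 5 UMIs and 124. The cause of these moves was not tested.

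Animals NC1 and PC1, and NC2 and PC2, share only a number (r = -0.087 to 0.070), and diet fitted with this number as a replicate block called 201 genes in fresh and 131 in preserved cells. Igh-6 was then called in preserved cells (log2 -6.61, adjusted p = 0.031, edgeR). It was also called with DESeq2 (-6.95), where 251 of 11364 genes were called, and with at least 1000 UMIs (-4.99), where 82 of 11338 were. The main fit called 71 of 11364 genes, without Igh-6. The log2 difference of Igh-6 was -4.34 without NC1 and -7.69 without NC2, each with only the other CSAA animal left.

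Signs turned in results that did not pass a threshold. Without 1 animal, the log2 diet difference was -1.99 to 0.20 (Tnfrsf13c), -1.93 to 0.14 (Pou2af1) and -2.16 to 0.22 (Fcer2) in fresh cells and -2.11 to 0.14, -1.70 to 0.17 and -2.01 to 0.18 in preserved cells, where Cd79b gave -1.63 to 0.021. In Siglech positive cells Tnfrsf13c was -0.31 in preserved libraries and -0.070 to 0.18 without 1 animal, and Pou2af1 was -0.0040 without doublets, -0.11 from 2 UMIs, -0.26 from 5 UMIs, -0.29 in preserved libraries and -0.064 to 0.082 without 1 animal. The Cd79a share differed between diets in fresh cells by -0.87 points when thinned, -1.45 from 2 UMIs and -2.89 to 3.46 without 1 animal, and in preserved cells by -5.37 to 2.39. The Cd79b share differed after preservation by 0.27 when thinned and -1.70 to 1.31 without 1 animal, and between diets by -22.1 to 0.79 in fresh and -15.7 to 7.10 in preserved cells.

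Each diet had 2 animals, and without 1 of them the lone animal of its diet was assumed to vary like those of the other diet. Exact tests of shares could not pass the threshold at these sizes. Samples were unsorted, 1 UMI made a cell positive, and free RNA held Cd79a and Cd79b. The positive from 3 and 5 UMIs settings and the fits without the Igh-6 barcodes were chosen after seeing the data.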
